A study of Mus musculus with 42 samples.

Results

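The skeletal and striated muscle genes described here are 38 genes of the sarcomere, of calcium handling and of energy supply, followed through 3 tissues (ear skin, aorta and liver) in mice of the K14-Rac1V12 strain. They were picked by name and not by a threshold on their response to diet. All 38 were found among the 48709 genes of the count table. Muscle transcripts reached 1.31% of all counts in 1 ear and 0.255% in 1 aorta, their summed level differed 12.5-fold between ears and 10.3-fold between aortas, and edgeR's quasi-likelihood test with its filter on low counts called none of the genes between diets in any tissue, while DESeq2 called 1, Myl1, in aortas of DHA against OD mice. In livers nearly all of them were at or near 0.

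Every mouse carried K14-Rac1V12, a constitutively active form of the small GTPase Rac1 placed under the keratin 14 promoter, which drives expression in basal keratinocytes, and no mouse without the transgene was analysed here. After 2 weeks on an omega-3 fatty acid deficient diet (OD), mice aged 14 weeks were assigned to 1 of 3 diets for 12 weeks, with 5 mice assigned to each. EPA mice received a diet rich in eicosapentaenoic acid, DHA mice a diet rich in docosahexaenoic acid, and OD mice stayed on the deficient diet. The labels give 3.0 g/kg for both supplemented diets, although the entry for DHA names EPA beside the dose, and a human equivalent of 4 g/day. The sex of the mice was not given. Ear, aorta and liver RNA gave 5 EPA, 5 DHA and 4 OD libraries per tissue, 42 in all. The labels tie no library of one tissue to a library of another, and the number given to a library below is only a name within its group. Nothing in the labels says that each library is a separate mouse, so p-values measure the spread between these libraries.

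Striated muscle contracts by sliding thick filaments of myosin along thin filaments of actin, which are anchored at Z-discs and aligned by titin and nebulin. Calcium released from the sarcoplasmic reticulum through the ryanodine receptor binds troponin C, and troponins I and T then move tropomyosin away from the myosin-binding sites of actin. The SERCA pump returns calcium to the store. Skeletal fibres differ in speed, and fast and slow fibres use different genes for the heavy and light chains of myosin and for the troponins, while the heart uses several of the slow genes. A mouse ear holds small skeletal muscles beneath the skin, the root of the aorta joins the heart, and liver holds no striated muscle. In whole tissue, fewer muscle fibres and less muscle RNA per fibre cannot be told apart.

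Libraries were made with a 3′ tag kit, so a count marks the 3′ end of a transcript and levels between genes were not ranked. Total counts per library were 40157 to 220488 in ears (median 91629), 179795 to 717508 in aortas (median 452411) and 343824 to 768532 in livers (median 484509). A gene with no count in a library could still have stood at up to 3 counts, which is 13.6 to 74.7 CPM (counts per 1000000 counts of a library) in ears, 4.18 to 16.7 CPM in aortas and 3.90 to 8.73 CPM in livers. Intervals and floors cover counting error only. The tissue labels matched their markers. Keratinocyte markers summed to 32578 to 48660.2 CPM in ears, against 151 to 289.8 CPM in aortas and 83.3 to 161 CPM in livers. Smooth muscle markers summed to 9794 to 23682 CPM in aortas, and hepatocyte markers to 124796 to 179736 CPM in livers. Alb, the albumin gene and 1 of the hepatocyte markers, had a count in every library of the other tissues. It stood at 336 to 1718 CPM in ears and 197 to 473 CPM in aortas, against 38216 to 64668 CPM in livers. The source of Alb counts outside liver was not tested. In each tissue 3 of 14 libraries (EPA 1, EPA 5 and DHA 1) held over 200 CPM of Xist, the RNA that coats the inactive X chromosome.

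The DNA before the start of a muscle gene often carries short motifs bound by muscle regulators: the E-box CAGCTG of the MyoD family, the MEF2 site, the CArG box of serum response factor and the MCAT motif CATTCC of TEAD factors. RefSeq windows of 250 bases before the start (GRCm38.p6) were found for 30 of the 38 genes, 37 windows in all. Some genes, among them Mb, Tnni1 and Ldb3, had more than 1 window, and each window was counted. The windows were searched on both strands, or for TATAAA on the sense strand. CAGCTG was found in 16 of the 37 windows (43.2%), against 13.0% of the 32851 windows of all genes. MCAT was found in 10 (27.0%, against 12.6%), MEF2 in 6 (16.2%, against 1.69%), CArG in 5 (13.5%, against 1.47%) and TATAAA in 4 (10.8%, against 7.59%). A match is a description of letters and not of binding. The 5 windows shown here belong to genes on which the results turn: Acta1 and Ckm were highest in the same 3 aortas, Myh4 differed in its share of heavy chain counts between ears, and Ldb3 and Casq1 kept another pattern in aortas. Each is given 5′ to 3′ on the gene's own strand, with the motifs in capitals. They are Acta1 at chr8:123894776-123895025 (minus strand), Myh4 at chr11:67237562-67237811 (plus), Ckm at chr7:19410844-19411093 (plus), Ldb3 at chr14:34588682-34588931 (minus) and Casq1 at chr1:172219896-172220145 (minus).
Acta1: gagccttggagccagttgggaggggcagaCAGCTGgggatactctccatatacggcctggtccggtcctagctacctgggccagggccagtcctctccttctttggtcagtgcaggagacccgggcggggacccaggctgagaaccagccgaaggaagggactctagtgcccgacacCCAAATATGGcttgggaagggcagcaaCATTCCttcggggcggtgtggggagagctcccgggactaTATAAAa
Myh4: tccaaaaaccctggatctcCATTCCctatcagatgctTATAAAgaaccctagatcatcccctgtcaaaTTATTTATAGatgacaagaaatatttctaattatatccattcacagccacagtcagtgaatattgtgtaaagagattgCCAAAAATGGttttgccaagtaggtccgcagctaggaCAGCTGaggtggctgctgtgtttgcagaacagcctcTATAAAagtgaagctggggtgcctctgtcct
Ckm: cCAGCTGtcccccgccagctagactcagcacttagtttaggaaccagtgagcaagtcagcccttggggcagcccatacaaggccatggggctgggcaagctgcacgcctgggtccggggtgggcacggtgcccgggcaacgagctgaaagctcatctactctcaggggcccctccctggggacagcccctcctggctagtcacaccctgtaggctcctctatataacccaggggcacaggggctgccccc
Ldb3: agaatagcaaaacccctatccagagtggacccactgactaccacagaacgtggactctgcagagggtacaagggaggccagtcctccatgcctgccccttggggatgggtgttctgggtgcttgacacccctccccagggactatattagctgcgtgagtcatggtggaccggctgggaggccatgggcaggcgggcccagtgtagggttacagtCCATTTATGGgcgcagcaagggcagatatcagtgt
Casq1: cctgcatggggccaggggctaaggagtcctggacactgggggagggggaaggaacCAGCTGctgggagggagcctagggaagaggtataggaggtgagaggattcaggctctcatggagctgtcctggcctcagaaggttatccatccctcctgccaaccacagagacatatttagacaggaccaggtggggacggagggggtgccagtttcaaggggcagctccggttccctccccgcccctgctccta
The Acta1 window, before the gene of skeletal α-actin, held CAGCTG at 221 to 216 bases before the start and a CArG box at 73 to 64. It also held MCAT at 46 to 41 and TATAAA at 7 to 2. The Myh4 window, before the gene of the fastest myosin heavy chain, held all 5 kinds of motif, with MEF2 at 182 to 173, CArG at 104 to 95 and CAGCTG at 67 to 62. The Ckm and Casq1 windows each held 1 CAGCTG, and the Ldb3 window held 1 CArG box and no CAGCTG. None of the motifs in these 5 windows overlapped another. The starts are those of RefSeq, which place the starts of Acta1, Myh4 and Casq1 before, and that of Ckm inside, the gene's bounds in GENCODE.

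Over all 38 genes, ears held the most muscle transcript per library. The summed level was 6588, 3905, 2062, 5932 and 2516 CPM in EPA ears, 1465, 6423, 1841, 1046 and 13122 CPM in DHA ears and 2932, 3309, 7459 and 5178 CPM in OD ears. The means were 4200.4 ± 2012 CPM in EPA ears, 4779 ± 5144 CPM in DHA ears (SD, n = 5 each) and 4719 ± 2073 CPM in OD ears (SD, n = 4). DHA ear 5 and DHA ear 4 were the highest and the lowest of the 14 ears, so the DHA group spanned both other groups. In aortas the sum was 327, 2550.4, 531, 443 and 527 CPM under EPA, 247, 332, 1734, 544 and 1382 CPM under DHA and 261, 452, 747 and 369 CPM under OD. The aorta means were 876 ± 940 CPM for EPA, 848 ± 669 CPM for DHA (SD, n = 5 each) and 457 ± 208 CPM for OD (SD, n = 4). The 3 highest aortas, EPA 2, DHA 3 and DHA 5, all came from supplemented mice, and the remaining 7 supplemented aortas overlapped the OD aortas. Livers held 20.1 to 42.1 CPM under EPA, 29.5 to 67.04 CPM under DHA and 29.5 to 38.7 CPM under OD.

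**Figure D1:**
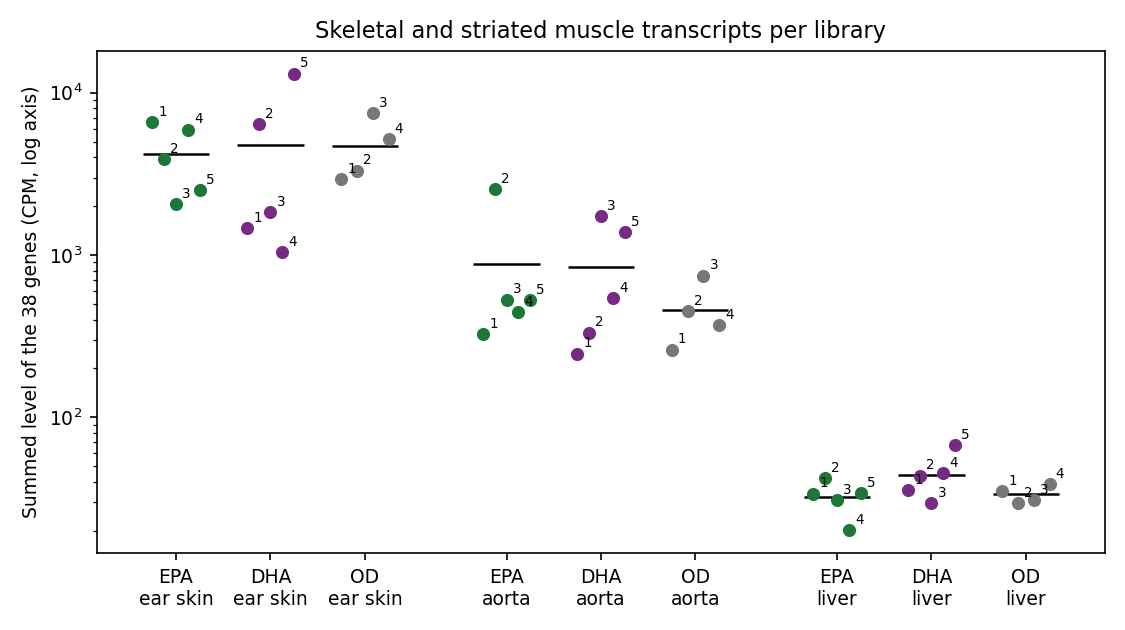
Summed level of the 38 muscle genes in each library, in CPM on a log axis, for EPA, DHA and OD in ear skin, aorta and liver; points are libraries with their number and bars are group means. Ears lie at 1046 to 13122 CPM, aortas at 247 to 2550.4 CPM with EPA 2, DHA 3 and DHA 5 highest, and livers at 20.1 to 67.04 CPM.

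All 38 genes had at least 3 counts over the 14 ears and over the 14 aortas, against 12 over the 14 livers, and 20 genes had no count in any liver. A count was seen in every library for 11 genes in ears, 7 in aortas and 1 (Neb) in livers. Tissues were compared with edgeR's quasi-likelihood test over 9912 genes with the 3 diets averaged, and 30 of the 38 genes passed its filter on low counts. The other 8 (Myl2, Myl3, Tnni1, Tnnc1, Actn3, Myoz1, Mybpc2 and Cacna1s) were too low to test. Genes that passed only through the tissue in which they were high had to differ, so the counts that follow describe the genes and support nothing further.

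Of the 30, all were higher in ears than in livers at a Benjamini-Hochberg adjusted p under 0.05, against 37.4% of all tested genes higher and 33.9% lower. The median log2 difference was 6.32, against 0.13 for all genes. Examples are Tnnc2, the fast troponin C, at 7.99 ± 0.73 (log2 ± SE) and Ttn, which encodes titin, at 6.94 ± 0.51. The smallest differences were those of Neb, which encodes nebulin, the thin filament ruler, at 2.47 ± 0.36 and of Tnnt1, the slow troponin T, at 1.90 ± 0.58. On mean CPM, Ttn was 307-fold and Neb 14.2-fold higher in ears than in livers. Myl1 and Myh2, with no count in any liver, were at least 285-fold and 315-fold higher, taking 3 counts over the 14 livers as the floor.

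Aortas also stood above livers. Here 26 of the 30 were higher and 0 lower, against 35.6% and 30.5% of all genes, with a median log2 difference of 4.27, against 0.12 for all genes. Ldb3, a Z-disc protein that binds α-actinin, differed by 7.28 ± 0.38 and Tcap, which caps titin at the Z-disc, by 6.99 ± 0.46. With no count in a liver, Ldb3 was at least 148-fold higher on mean CPM. Neb at -0.59 ± 0.42, Tnnt1 at -0.49 ± 0.64, Eno3 and Myot did not pass the test. Without EPA aorta 2, Neb was lower in aortas than in livers, at a log2 difference of -0.98 (edgeR's quasi-likelihood test, adjusted p = 0.0290).

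Ears stood above aortas for 25 of the 30 and below for 3, against 28.9% and 33.9% of all genes, with a median log2 difference of 2.56, against -0.05 for all genes. Tnnc2 at 3.70 ± 0.43, Myh4 at 3.61 ± 0.40 and Myh1 at 3.48 ± 0.38 are examples of the 25. The 3 that were lower in ears were Ldb3 at -2.15 ± 0.24, Pygm, the glycogen phosphorylase of muscle, at -1.51 ± 0.38 and Tcap at -0.88 ± 0.25. Casq1, the calcium-storing protein of the sarcoplasmic reticulum, at -0.99 ± 0.51, and the slow myosin Myh7, at -0.41 ± 0.75, did not pass. When libraries were scaled by total counts alone, Tcap lost the call, at -0.39 (adjusted p = 0.199), while Ldb3 and Pygm held theirs. That scaling moved the median of all genes by more than 0.1 in each tissue contrast, to 1.31 for ears over livers, 0.81 for aortas over livers and 0.42 for ears over aortas, and the share of calls that were higher to 80.2%, 78.7% and 64.99%, in place of 52.5%, 53.8% and 46.002%.

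**Figure D2:**
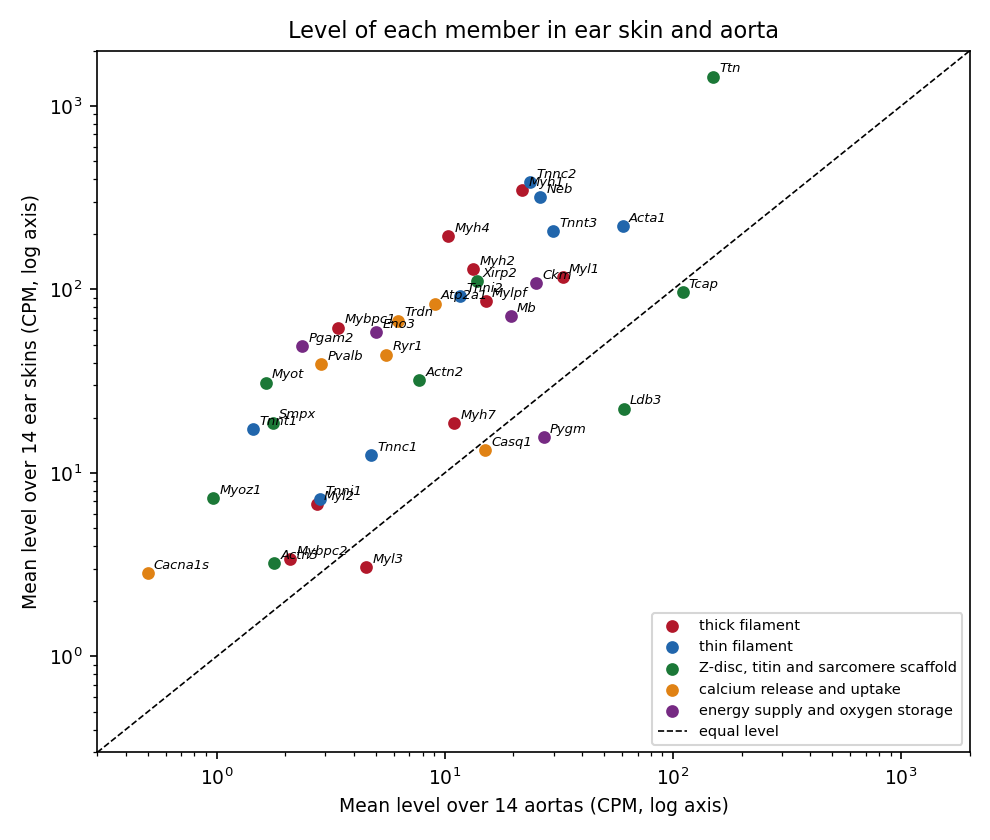
Mean level of each of the 38 genes over 14 ears (vertical, CPM, log axis) against 14 aortas (horizontal, CPM, log axis), coloured by role; the dashed line marks equal levels. Most genes lie above the line, and Tcap, Ldb3, Pygm, Casq1 and Myl3 lie below it.

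In ears, the motor proteins of the thick filament were spread over the libraries much as the summed level was, with DHA ears 1, 3 and 4 low and DHA ear 5 and OD ear 3 high for most genes. Myh1, the IIx heavy chain of fast fibres, had 476, 434, 206, 265 and 271 CPM in EPA ears, 111, 502, 141, 99.6 and 789.6 CPM in DHA ears and 88.8, 155, 795 and 560.1 CPM in OD ears. Myh4, the IIb heavy chain of the fastest fibres, had 349.8, 81.9, 103, 438 and 60.2 CPM in EPA ears, 35.2, 274, 58.96, 49.8 and 338 CPM in DHA ears and 281, 173, 390.2 and 99.6 CPM in OD ears. Myh7, the slow and cardiac heavy chain, gave 2, 0, 0, 0 and 5 counts in EPA ears, 2, 1, 1, 1 and 7 counts in DHA ears and 0, 0, 0 and 2 counts in OD ears. OD ear 3 was highest for Myh1, EPA ear 4 for Myh4 and DHA ear 5 for Myh7, and OD ear 1 held the least Myh1 but more Myh4 than most ears. Myl1, an essential light chain of fast fibres, had 291, 81.9, 20.6, 186 and 30.1 CPM in EPA ears, 76.2, 152, 45.4, 49.8 and 282 CPM in DHA ears and 188, 45.6, 105 and 87.1 CPM in OD ears. Mylpf, the fast regulatory light chain, had 97.2, 73.7, 41.2, 159 and 48.2 CPM in EPA ears, 41.02, 137, 49.9, 0 and 150.4 CPM in DHA ears and 109, 100.3, 150.1 and 49.8 CPM in OD ears. Its slow and cardiac partner Myl2 gave 1, 0, 0, 1 and 0 counts in EPA ears, 0, 1, 1, 0 and 1 counts in DHA ears and 0, 2, 1 and 0 counts in OD ears. All diet groups overlapped for each of these genes. Of the remaining thick filament genes, Myh2, the IIa heavy chain, ran from 14.8 to 545 CPM and Mybpc1, the slow myosin-binding protein C, from 0 to 169 CPM, while Mybpc2 and Myl3 gave 6 and 3 counts over all ears.

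Thin filament genes spread as widely in ears. Acta1 had 408, 180.1, 82.5, 318 and 132 CPM in EPA ears, 105, 289, 68.03, 0 and 564 CPM in DHA ears and 158, 191, 300.1 and 299 CPM in OD ears. Neb had 389, 270.1, 186, 411 and 193 CPM in EPA ears, 46.9, 396, 132, 49.8 and 1034 CPM in DHA ears and 143, 209.7, 630.3 and 361 CPM in OD ears. DHA ear 5 was highest for both, and for Acta1 no count was seen in DHA ear 4, the shallowest ear. Tnnc2, the calcium sensor of fast fibres, had 904, 188, 103, 624 and 157 CPM in EPA ears, 117, 533, 113, 24.9 and 865 CPM in DHA ears and 484, 365, 630.3 and 261 CPM in OD ears. Tnnt3, the fast troponin T, which binds tropomyosin, had 418, 180.1, 82.5, 398 and 84.3 CPM in EPA ears, 129, 167, 68.03, 0 and 470.0 CPM in DHA ears and 207, 155, 375 and 187 CPM in OD ears. Tnni2, the inhibitory troponin I of fast fibres, had 155, 65.5, 61.9, 66.4 and 36.1 CPM in EPA ears, 35.2, 152, 27.2, 0 and 338 CPM in DHA ears and 78.97, 54.7, 120.1 and 99.6 CPM in OD ears. The slow partners were near the limit of detection: over all ears Tnnc1 gave 13 counts, Tnnt1 20 and Tnni1 11. Tnnc1 gave 3, 0, 1, 0 and 1 counts in EPA ears, 0, 2, 1, 0 and 4 counts in DHA ears and 0, 1, 0 and 0 counts in OD ears. Tnnt1 gave 1, 1, 0, 1 and 1 counts in EPA ears, 0, 3, 2, 1 and 1 counts in DHA ears and 0, 3, 2 and 4 counts in OD ears. Tnni1 gave 1, 1, 0, 0 and 3 counts in EPA ears, 0, 0, 1, 0 and 2 counts in DHA ears and 1, 2, 0 and 0 counts in OD ears. DHA ear 5 held 4 of the 13 Tnnc1 counts.

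Titin and the Z-disc genes were followed next. Ttn, whose protein runs from the Z-disc to the middle of the sarcomere, had 1564, 1195, 783, 1579 and 891 CPM in EPA ears, 387, 2131, 658, 423 and 4944 CPM in DHA ears and 479, 994, 2431 and 1780.0 CPM in OD ears. Tcap had 97.2, 40.9, 20.6, 146 and 12.04 CPM in EPA ears, 41.02, 213, 72.6, 0 and 282 CPM in DHA ears and 98.7, 109, 150.1 and 74.7 CPM in OD ears, and Ldb3 had 29.1, 16.4, 0, 26.5 and 12.04 CPM in EPA ears, 5.86, 15.2, 4.54, 24.9 and 37.6 CPM in DHA ears and 24.7, 27.3, 15.01 and 74.7 CPM in OD ears. DHA ear 5 held the most Ttn and DHA ear 1 the least, so the DHA ears spanned all others. Actn2, the α-actinin of all striated fibres, had a count in every ear (12.0 to 75.2 CPM). Xirp2, an actin-binding protein near the intercalated disc and Z-disc, ran from 0 to 282 CPM, Smpx from 0 to 75.0 CPM and Myot, a Z-disc protein, from 0 to 94.0 CPM. Actn3 and Myoz1, of fast fibres, gave 6 and 10 counts over all ears.

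Calcium and energy genes were also present in ears. Atp2a1, the SERCA pump of fast fibres, ran from 0 to 194 CPM, Trdn, which anchors calcium stores to their release channel, from 0 to 244 CPM, and Ryr1, the release channel itself, from 4.9 to 169 CPM with a count in every ear. Parvalbumin (Pvalb), a calcium buffer of fast fibres, ran from 0 to 94.0 CPM, and Casq1 and the voltage sensor Cacna1s gave 17 and 4 counts over all ears. Ckm, the muscle creatine kinase, ran from 20.6 to 319.6 CPM, Mb, the oxygen store myoglobin, from 0 to 188 CPM, Eno3 from 6.0 to 136 CPM and Pgam2 from 0 to 207 CPM, the last pair being glycolytic enzymes of muscle. Pygm gave 20 counts in 8 of 14 ears. DHA ear 5 was the highest ear for 23 of the 38 genes, EPA ear 1 for 5 and EPA ear 4 for 4.

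In aortas, most genes were high in the same 3 libraries. Myh1 had 6.61, 86.9, 16.3, 7.11 and 7.80 CPM in EPA aortas, 5.31, 0, 86.4, 3.29 and 53.98 CPM in DHA aortas and 0, 5.57, 22.8 and 4.79 CPM in OD aortas. Myh4 had 3.30, 53.5, 18.97, 7.11 and 1.56 CPM in EPA aortas, 0, 0, 3.52, 11.5 and 12.3 CPM in DHA aortas and 0, 6.97, 24.8 and 1.60 CPM in OD aortas. Myh7 had 0, 51.8, 8.13, 0 and 9.35 CPM in EPA aortas, 0, 6.09, 35.2, 8.22 and 7.36 CPM in DHA aortas and 0, 1.39, 26.9 and 0 CPM in OD aortas. All 3 heavy chains were highest in EPA aorta 2, while Myh4 was nearly absent from DHA aorta 3, where Myh1 and Myh7 were high. Myl1 had 3.30, 68.5, 18.97, 47.4 and 31.2 CPM in EPA aortas, 34.5, 18.3, 52.9, 49.3 and 61.3 CPM in DHA aortas and 22.2, 26.5, 12.4 and 14.4 CPM in OD aortas. Mylpf had 3.30, 66.9, 5.42, 14.2 and 10.9 CPM in EPA aortas, 2.66, 0, 33.5, 4.93 and 46.6 CPM in DHA aortas and 0, 1.39, 12.4 and 9.59 CPM in OD aortas. Myl2 gave 0, 4, 1, 0 and 1 counts in EPA aortas, 0, 0, 13, 0 and 2 counts in DHA aortas and 0, 0, 0 and 0 counts in OD aortas. Myl1 was present in every aorta and Myl2 in 5 of 14. Myh2 ran from 0 to 74.0 CPM, Mybpc1 from 0 to 12.3 CPM, Mybpc2 from 0 to 12.4 CPM and Myl3 from 0 to 36.8 CPM.

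Thin filament genes were high in the same 3 aortas. Acta1 had 0, 358, 18.97, 9.48 and 21.8 CPM in EPA aortas, 0, 3.05, 213, 4.93 and 147 CPM in DHA aortas and 11.1, 9.76, 33.1 and 14.4 CPM in OD aortas. Neb had 6.61, 119, 18.97, 18.97 and 23.4 CPM in EPA aortas, 5.31, 3.05, 72.3, 13.2 and 46.6 CPM in DHA aortas and 0, 8.36, 22.8 and 7.99 CPM in OD aortas. Tnnc2 had 6.61, 122, 8.13, 4.74 and 17.2 CPM in EPA aortas, 0, 3.05, 75.8, 4.93 and 61.3 CPM in DHA aortas and 5.56, 5.57, 14.5 and 1.60 CPM in OD aortas. All 3 genes stood highest in EPA aorta 2, then DHA aorta 3 and DHA aorta 5, and their OD aortas overlapped the other supplemented aortas. Tnnt3 had 9.91, 110.3, 21.7, 7.11 and 7.80 CPM in EPA aortas, 0, 3.05, 86.4, 13.2 and 137 CPM in DHA aortas and 0, 4.18, 12.4 and 4.79 CPM in OD aortas. Tnni2 had 3.30, 51.8, 8.13, 0 and 10.9 CPM in EPA aortas, 2.66, 0, 42.3, 0 and 31.9 CPM in DHA aortas and 5.56, 2.79, 4.14 and 0 CPM in OD aortas. DHA aorta 5 was highest for Tnnt3 and EPA aorta 2 for Tnni2. Of the slow partners, Tnnc1 gave 0, 11, 2, 1 and 1 counts in EPA aortas, 0, 2, 12, 3 and 0 counts in DHA aortas and 0, 0, 1 and 3 counts in OD aortas. Tnni1 gave 0, 5, 2, 1 and 4 counts in EPA aortas, 0, 0, 2, 1 and 2 counts in DHA aortas and 0, 4, 0 and 1 counts in OD aortas. Tnnt1 gave 0, 1, 1, 0 and 1 counts in EPA aortas, 1, 1, 2, 0 and 0 counts in DHA aortas and 0, 1, 1 and 1 counts in OD aortas. No aorta held more than a few counts of Tnnt1.

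Titin shared this pattern, while Tcap and Ldb3 did not. Ttn had 19.8, 657, 84, 85.4 and 93.5 CPM in EPA aortas, 45.2, 70.1, 374, 109 and 285 CPM in DHA aortas and 44.5, 34.8, 172 and 33.6 CPM in OD aortas. Tcap had 122, 152, 103, 92.5 and 117 CPM in EPA aortas, 45.2, 122, 116, 135 and 98.2 CPM in DHA aortas and 16.7, 181, 132 and 112 CPM in OD aortas. Ldb3 had 66.1, 68.5, 73.2, 54.5 and 45.2 CPM in EPA aortas, 45.2, 30.5, 45.8, 83.9 and 53.98 CPM in DHA aortas and 61.2, 75.3, 93.2 and 57.5 CPM in OD aortas. Tcap and Ldb3 were present in every aorta; OD aorta 2 was highest for Tcap and OD aorta 3 for Ldb3, and EPA aorta 1 and DHA aorta 2, which held almost no Acta1, lay above DHA aorta 3 for Tcap. Pygm ran from 15.9 to 49.7 CPM with a count in every aorta, and Casq1 from 0 to 36.8 CPM with a count in 12 of 14. Tcap, Ldb3, Pygm and Casq1 together summed to 289 CPM in EPA aorta 2, 199 CPM in DHA aorta 3 and 194 CPM in DHA aorta 5, within the 94.6 to 300.2 CPM of all aortas. The other 34 genes summed to 2261, 1535 and 1188 CPM in those 3 aortas and to 79.3 to 447 CPM in the remaining 11. These 4 genes were grouped after their values were seen, so the split has no test. Actn2 ran from 0 to 20.1 CPM, Xirp2 from 0 to 65.2 CPM, Myot and Smpx gave 12 and 11 counts over all aortas, and Actn3 and Myoz1 14 and 8.

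Among the calcium and energy genes of aortas, Ckm and Mb had a count in every library, at 3.0 to 122 CPM and 2.8 to 70.2 CPM. Atp2a1 ran from 0 to 44.1 CPM, Trdn from 0 to 26.7 CPM, Ryr1 from 0 to 18.4 CPM, Pvalb from 0 to 12.3 CPM and Eno3 from 0 to 30.1 CPM. Pgam2 and Cacna1s gave 19 and 3 counts over all aortas. EPA aorta 2 was the highest aorta for 21 of the 38 genes, DHA aorta 3 for 8, and DHA aorta 5 and OD aorta 3 for 3 each.

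Markers of heart muscle were highest in the same aorta as these genes, but did not follow them across the other aortas. The 14 cardiomyocyte markers, 13 of them with a count in some aorta and Myh7b at 0 in all, summed to 109, 483, 136, 147 and 73.3 CPM in EPA aortas, 109, 222, 208, 201 and 103 CPM in DHA aortas and 339, 85.0, 267 and 126 CPM in OD aortas. EPA aorta 2 was the highest, while DHA aorta 5, with 1382 CPM of the muscle genes, was among the lowest. OD aorta 1 came next after EPA aorta 2, at 339 CPM, although its sum of the muscle genes was the lowest of the OD aortas. Myh6, the heavy chain of heart atrium and adult mouse ventricle, gave 0, 88, 4, 5 and 3 counts in EPA aortas, 3, 9, 20, 26 and 0 counts in DHA aortas and 5, 0, 32 and 5 counts in OD aortas. Over all ears Myh6 gave 1 count and over all livers 0. The part of heart muscle in the aorta levels was not tested. Brown adipocyte markers summed to 2091 to 3823 CPM in EPA aortas, 3111 to 3799.6 CPM in DHA aortas and 1164 to 2615 CPM in OD aortas, and smooth muscle markers to 10615 to 16333 CPM in EPA aortas, 9794 to 13431 CPM in DHA aortas and 13265 to 23682 CPM in OD aortas.

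**Figure D3:**
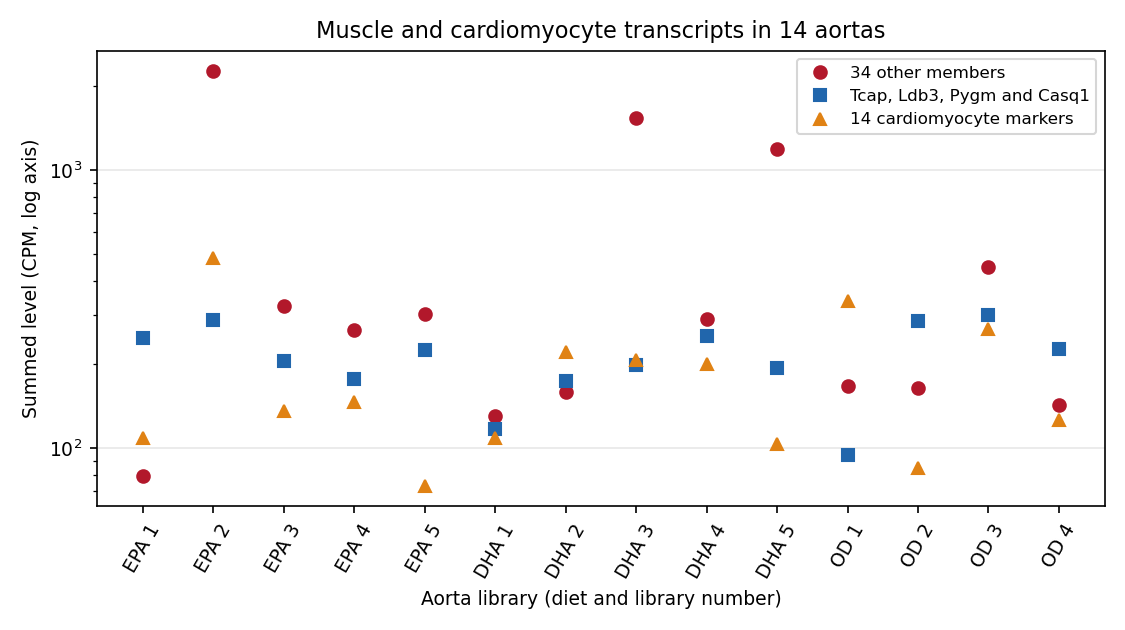
Summed levels in each of the 14 aortas (CPM, log axis) of 34 muscle genes (circles), of Tcap, Ldb3, Pygm and Casq1 (squares) and of 14 cardiomyocyte markers (triangles). The 34 genes reach 2261, 1535 and 1188 CPM in EPA 2, DHA 3 and DHA 5, and the 4 genes stay within 94.6 to 300.2 CPM.

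In livers, 165 of the 267 counts of all 38 genes came from Neb. Neb gave 5, 13, 9, 7 and 7 counts in EPA livers, 7, 9, 4, 12 and 30 counts in DHA livers and 21, 10, 13 and 18 counts in OD livers, a count in every liver. Ttn gave 33 counts over all livers, Eno3 13, Tnnt1 11, Mylpf 9 and Tnnc1 8. Beyond the 38, Csrp3, a Z-disc protein of striated muscle, and Hfe2, hemojuvelin, which liver makes as well as muscle, had a count in every liver, with 231 and 233 counts in all.

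Fibre type was read from counts of alternative genes within 1 library, as shares of counts, which are not shares of protein or of fibres. The share of Myh4 among the adult fast heavy chains Myh1, Myh2 and Myh4 was 37.1%, 11.4%, 31.2%, 55% and 14.5% in EPA ears, 18.8%, 26.9%, 23.2%, 28.6% and 20.2% in DHA ears and 73.1%, 46.3%, 29.5% and 11.8% in OD ears. The highest and the lowest share in OD ears had Wilson 95% intervals that did not overlap, 62.3% to 81.7% in OD ear 1 and 6.08% to 21.5% in OD ear 4. Ears of 1 diet thus differed among themselves, and the diets overlapped. In the 3 high aortas the share was 30.2% in EPA 2 (22.3% to 39.5%), 2.15% in DHA 3 (0.592% to 7.51%) and 10.4% in DHA 5 (4.53% to 22.2%), so these aortas also differed among themselves. Mouse Myh2, Myh1 and Myh4 lie next to each other on chromosome 11 (GRCm38 67171027-67197517, 67200052-67224575 and 67238029-67260446) and are close in sequence, so reads could have been split between them.

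**Figure D4:**
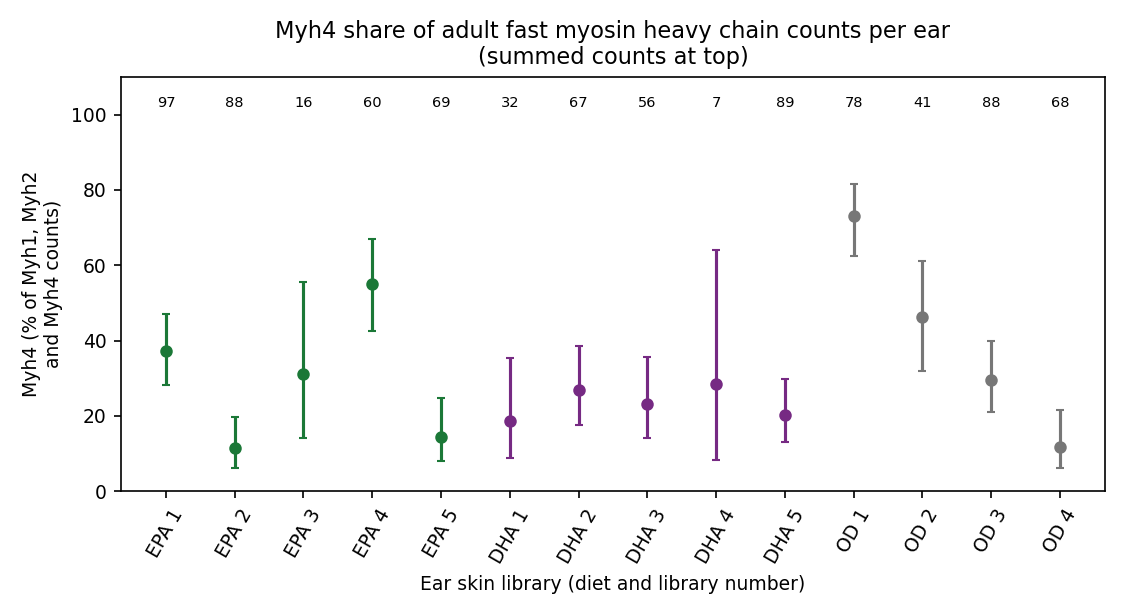
Share of Myh4 among the Myh1, Myh2 and Myh4 counts of each ear, in percent with Wilson 95% intervals; the numbers at the top are the summed counts. Shares run from 11.4% (EPA 2) to 73.1% (OD 1), and all diets overlap.

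Slow isoforms took a larger share of the counts in aortas than in ears for 3 of 4 pairs. Over all libraries Myh7 made 2.39% of the adult heavy chain counts in ears and 20.1% in aortas. Tnnc1 made 2.43% of troponin C counts in ears and 17.0% in aortas, Tnni1 8.66% and 20.6% of troponin I counts, and Tnnt1 6.56% and 4.52% of troponin T counts. Over 6 slow and 13 fast genes, the slow share was 3.49% in ears (76 of 2175 counts) and 15.2% in aortas (206 of 1355 counts). Single libraries departed from these totals. The slow share was 17.1% in EPA aorta 2 (13.8% to 20.9%) and 16.4% in DHA aorta 3 (12.7% to 20.8%), and 4.15% in DHA aorta 5 (2.12% to 7.96%). Most of these slow genes are also used by the heart, and the difference between tissues was not tested over libraries.

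Diets were compared within each tissue with edgeR's quasi-likelihood test, and the EPA and DHA contrasts share the 4 OD libraries. In aortas 10 of the 38 genes passed the filter on low counts. For EPA against OD, 0 of the 10 passed an adjusted p of 0.05, against 0.275% of the 6538 genes tested. An unadjusted p under 0.05 was found for 5, all of them higher, against 822 of all 6538 genes, 535 of them higher. DESeq2 called 0, with 8 adjusted p-values missing, against 200 of all genes, with 4817 missing. The smallest adjusted p was 0.231. The 10 log2 changes had a median of 1.37, against -0.02 for all genes, and 8 were positive. Scaling by total counts alone moved the median of all genes to -0.17 and that of the 10 to 1.203, with 0 passing. The median depended on which genes passed the filter. It was 0.31 over 6 genes with only the 2 diets compared. Without the libraries of high Xist it was 2.29 over 19 genes, and 0 passed in either. The filter asks for enough counts in as many libraries as the smallest group holds, in the main fit the 4 OD libraries. Genes could pass it partly, but not solely, through EPA aorta 2, DHA aorta 3 and DHA aorta 5, all supplemented, where they were high. The median over the 10 thus describes the tested genes and supports nothing further about diet. With no filter the median was 1.37 over all 38 genes. Acta1 stood at 2.54 ± 1.16, Mb at 1.98 ± 0.76, Ttn at 1.65 ± 0.72, Myl1 at 1.10 ± 0.45 and Myh1 at 1.75 ± 0.98. Without EPA aorta 2 only 5 genes were tested, Acta1 and Myh1 not among them, and the Ttn change was 0.24 (edgeR's quasi-likelihood test, adjusted p = 0.958) and the Myl1 change 0.67. With no filter on low counts, 12 of the 38 genes passed in edgeR, all of them higher (Acta1, Ckm, Mb, Myh1, Myh2, Myl1, Mylpf, Neb, Tnnc2, Tnni2, Tnnt3 and Ttn), against 1.2% of the 21486 genes then tested.

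For DHA against OD in aortas, 0 of the 10 passed in edgeR's quasi-likelihood test, against 4.88% of all genes, of which 280 were higher and 39 lower. Scaling by total counts alone turned that split to 79 higher and 126 lower and moved the median of all genes to -0.25, while the median of the 10 was then 1.27 and 0 passed. An unadjusted p under 0.05 was found for 4, all higher, against 1147 of all 6538 genes, 677 of them higher. DESeq2 called 1, with 5 adjusted p-values missing, against 7.12% of the 4636 genes to which it gave an adjusted p. The median of the 10 changes was 1.495, against -0.05 for all genes. It was -0.03 over 5 genes with only the 2 diets compared, where Myl1 passed. Without the libraries of high Xist it was 2.14 over 19 genes, where Myl1 and Tnnt3 passed. As for EPA, genes could pass the filter partly through the high supplemented aortas, so the median over the 10 describes the tested genes only. With no filter the median was 1.45 over all 38 genes. Myl1, at 1.42 ± 0.44, came closest (adjusted p = 0.0678 with edgeR and 0.0460 with DESeq2). Mb stood at 2.15 ± 0.76, Myh1 at 2.00 ± 0.96, Acta1 at 2.37 ± 1.18 and Neb at 1.64 ± 0.82. Tcap at -0.04 ± 0.28, Ldb3 at -0.25 ± 0.21, Pygm at -0.12 ± 0.32 and Casq1 at -0.73 ± 0.60 were at or below 0. Without EPA aorta 2, DHA aorta 3 and DHA aorta 5 together, 6 genes were tested and 0 called; Ttn then stood at 0.32 for DHA against OD and Myl1 at 1.10 (edgeR's quasi-likelihood test, adjusted p = 0.298). With no filter, 15 of the 38 passed, the 12 named above with Atp2a1, Myl2 and Xirp2, against 1.9% of all genes. EPA against DHA in aortas gave 0 of 10 in edgeR and in DESeq2, 0 at an unadjusted p under 0.05 and a median change of 0.13, where 0% of all genes passed.

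In ears 16 genes were tested, and 0 passed for EPA against OD, for DHA against OD or for EPA against DHA, where 0% of the 2133 tested genes passed in each. Neither edgeR at an unadjusted p under 0.05 nor DESeq2 called any of the 16. The median changes were -0.09 for EPA against OD, -0.20 for DHA against OD and 0.23 for EPA against DHA. For DHA against OD the changes ran from -1.03 ± 0.68 for Atp2a1 to 0.96 ± 0.79 for Myh2, with Ttn at 0.32 ± 0.60 and Myh4 at -0.87 ± 0.66. The SE of these changes was 0.53 to 0.79, which limits what could be detected at this depth. Without DHA ears 4 and 5, the lowest and the highest ear, Ttn stood at -0.44 and Neb at -0.94 for DHA against OD, and 0 passed. In livers only Neb was tested, at -0.54 ± 0.43 for EPA against OD, 0.14 ± 0.41 for DHA against OD and -0.68 ± 0.42 for EPA against DHA (edgeR's quasi-likelihood test, adjusted p = 0.905, 0.987 and 1.00), where 0% of the 5018 tested genes passed in each contrast, DESeq2 called 0, and 0 had an unadjusted p under 0.05.

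**Figure D5:**
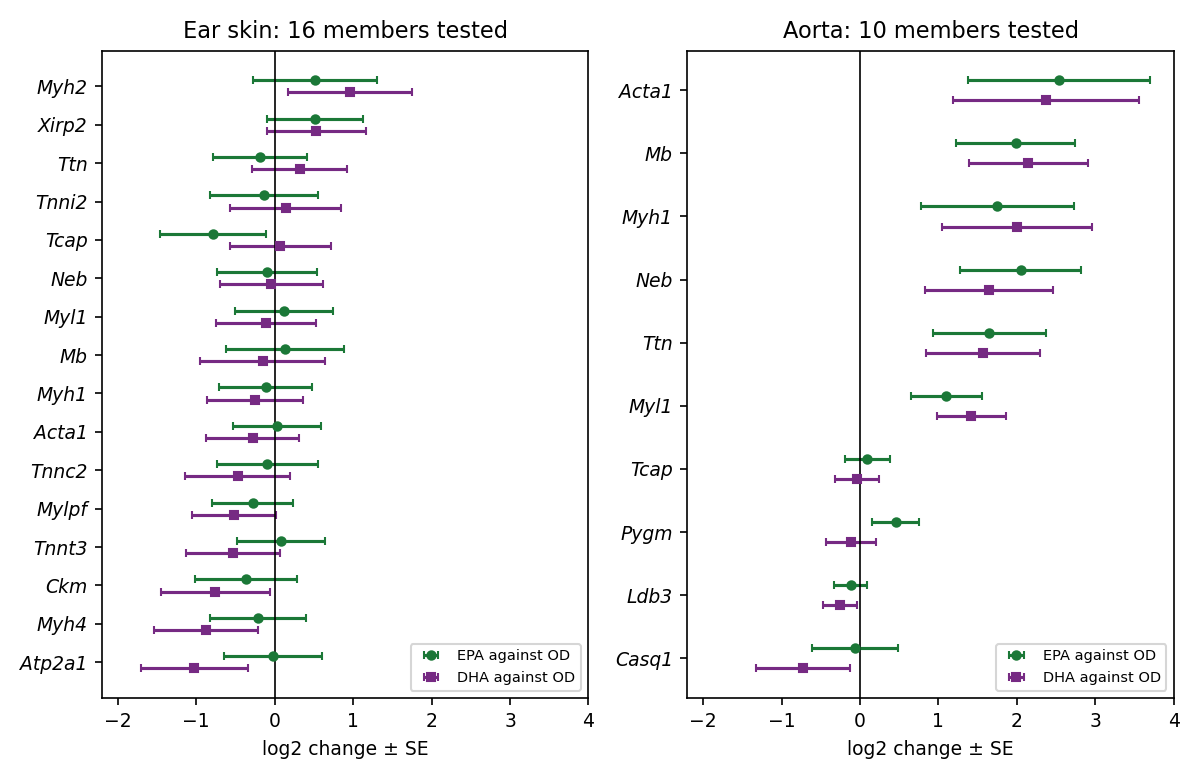
Log2 change ± SE of each tested gene for EPA against OD (circles) and DHA against OD (squares), in ear skin (16 genes) and aorta (10 genes), from edgeR. Ear changes lie on both sides of 0, and in aorta Acta1, Mb, Myh1, Neb, Ttn and Myl1 lie above 1 while Tcap, Pygm, Ldb3 and Casq1 lie near or below 0.5.

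Whether the diet changes differed between aorta and ear was tested directly in a fit over all libraries, which treats the tissues as independent. The aorta change minus the ear change had a median of 1.505 over the 30 tested genes for EPA against OD and 1.71 for DHA against OD. Over all genes the medians were 0.036 and 0.0098. edgeR's quasi-likelihood test called 0 of 30 in each, where 0% of all 9912 genes passed. An unadjusted p under 0.05 was found for 7 genes for EPA and 10 for DHA, all positive. Over all 9912 genes it was found for 631 (440 positive) for EPA and 682 (455 positive) for DHA. DESeq2 called 0 in each with 29 adjusted p-values missing. The smallest adjusted p, 0.357, was reached for DHA against OD. With no filter on low counts, 6 of the 38 genes passed for each diet, against 0.0902% of 23288 genes for EPA and 0.0859% for DHA.

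Other genes of skeletal muscle were set beside the 38. Of a list of 78 further muscle genes, 29 were tested in aortas, and for DHA against OD 5 rose and 0 fell in edgeR's quasi-likelihood test, with a median of -0.19, where 4.88% of all genes passed in either direction. The 5 were Cox7a1 (1.21 ± 0.24) and Cox8b (1.08 ± 0.21), subunits of cytochrome c oxidase that brown fat also uses, and the glycolytic enzymes Ldha (0.83 ± 0.17), Aldoa (0.88 ± 0.21) and Gapdh (0.78 ± 0.19). Beside them, 5 of 14 tested brown adipocyte markers and 5 of 12 tested white adipocyte markers rose, and 1 of 11 smooth muscle markers fell. Of the 11 smooth muscle changes 0 were positive, with a median of -0.51. In edgeR 9 of the 11 had an unadjusted p under 0.05, against 1147 of all 6538 genes. DESeq2 called 7 of them, and 6 of the brown and 6 of the white adipocyte markers. The part of these cells in the 5 muscle gene changes was not tested. For EPA against OD, 0 of the 29 passed in edgeR, where 0.275% of all genes passed, and their median was -0.13. An unadjusted p under 0.05 was found for 8, 6 of them higher, against 822 of all 6538 genes, 535 of them higher. DESeq2 called 5, with 12 adjusted p-values missing, against 200 of all genes, with 4817 missing.

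Between tissues the further list went both ways. Of 42 tested, 34 were higher and 4 lower in ears than in livers, where 37.4% and 33.9% of all tested genes were. In aortas against livers 36 were higher and 4 lower, where 35.6% and 30.5% of all genes were. Ears against aortas gave 10 higher and 25 lower, where 28.9% and 33.9% of all genes were. Higher in ears were, for example, Klhl41 (2.58 ± 0.50), a sarcomere protein, and lower were Cox7a1 (-5.52 ± 0.24) and Cox8b (-5.30 ± 0.22). Ucp1, the uncoupling protein of brown fat, gave 23 counts over all ears, 9556 over all aortas and 16 over all livers. Myod1 and Myog, the regulators of muscle differentiation, had no count in any library. Myh3, the embryonic heavy chain, gave 36 counts in 12 of 14 ears and none in aortas or livers. Myh8, the perinatal heavy chain, was found in each tissue, with totals of 17 for ears, 50 for aortas and 4 for livers. Of the 50, 25 came from EPA aorta 2 alone. The adult heavy chains Myh1, Myh2, Myh4 and Myh7 together gave 877 counts in ears and 418 in aortas. They thus outnumbered Myh3 and Myh8 in both tissues. Col2a1, the collagen of cartilage, gave 8 counts over all ears.

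The genes were placed on the genome with GENCODE M21 (GRCm38). Acta1 lies at chr8:123891769-123894751, Ttn at chr2:76703980-76982547, Neb at chr2:52136647-52378474, Tcap at chr11:98383811-98384953, Ldb3 at chr14:34526603-34588682 and Myl1 at chr1:66924295-66945404. Of the 38, 21 overlap an annotated gene on the other strand and 5 overlap one on their own strand. Whether counting used strand was not stated, so reads of such pairs cannot be told apart. Tnnc2, Tnnt3 and Neb are among the 21, and Neb is also among the 5. The part of such genes in the Neb counts of livers was not tested.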

How the data were processed

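RNA of ear skin, aorta and liver was sequenced as 42 libraries with a 3′ tag kit that adds molecular tags, per the labels' protocols. The authors deposited 1 table of raw read counts per gene, and these counts were used as deposited. The build GRCm38.p6 and the tool edgeR are named in the submitters' processing notes; the aligner, the counter and any use of strand or molecular tags, not given in the sources used here, could change the counts. A deposited normalised table was not used here. Every column belonged to 1 library, and groups were taken from the labels' tissue and diet.

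Levels are counts divided by the total of the library (40157 to 768532 counts), and precision is limited by that depth, so the floor of 3 counts and 95% Wilson intervals are given. Tests used edgeR 4.0.16 (limma 3.58.1, R 4.3.3) on the counts: filterByExpr, TMM scaling, a quasi-likelihood fit and Benjamini-Hochberg adjustment at 0.05 over all genes tested, per tissue for diets and over all 42 libraries for tissues and for the difference between tissues in a diet change. Alternatives were DESeq2 1.42.0, other scalings, other filters, each pair of diets alone, leaving out the libraries with over 200 CPM of Xist and leaving out each library in turn. Leaving out the 3 aortas with the highest summed level, or the lowest and the highest ear, was chosen after seeing the data. Tables and figures were made with Python 3.11.15, pandas 2.3.3 and matplotlib 3.10.9.

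The 38 genes and all lists were chosen with earlier results of these data known. By rule, values in every library are given for the 10 genes with the largest total count and for 5 pairs of fast and slow partners, and the others by range and counts. Tests between libraries treat each library as separate, since the labels give no replicate numbers and no batch. Sequences and positions are from RefSeq (GRCm38.p6) and GENCODE M21.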

Additional observations from a re-analysis of the deposited data

Results flagged for a closer look

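In each group of 4 or 5 libraries the highest and the lowest value were compared with the rest by the gap to the nearest library over the whole range of the group (Dixon's 95% critical value). Of 109 groups with enough counts, 19 had a library that stood apart. Chance gives about 1 in 20 for independent groups. These groups share libraries and genes, so the 19 cannot be set against that share.

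Of the 19, 15 were EPA aorta 2, the highest of the 5 EPA aortas. Its summed level of all 38 genes was 2550.4 CPM, with the next EPA aorta at 531 CPM. By role it held 419 CPM of the thick filament (next 81.3 CPM), 789 CPM of the thin filament (next 90.4 CPM), 961 CPM of titin and the Z-disc (next 285 CPM), 104 CPM of calcium handling (next 35.2 CPM) and 277 CPM of energy supply (next 67.04 CPM). By gene it held 657 CPM of Ttn, 358 CPM of Acta1, 119 CPM of Neb, 122 CPM of Tnnc2, 86.9 CPM of Myh1, 110.3 CPM of Tnnt3, 66.9 CPM of Mylpf, 51.8 CPM of Tnni2 and 51.8 CPM of Myh7. The same library also held the most cardiomyocyte marker transcript of all aortas, 483 CPM, and its total was 598339 counts, within the range of the aortas; the part of heart muscle was not tested.

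The other 4 stood in 4 libraries. DHA ear 5 held 827 CPM of the energy supply genes, with the next DHA ear at 274 CPM. OD aorta 3 held 172 CPM of Ttn (next 44.5 CPM), DHA aorta 3 held 35.2 CPM of Myh7 (next 8.22 CPM) and EPA ear 1 held 155 CPM of Tnni2 (next 66.4 CPM).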

How the results depend on the processing

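Counts of genes called were set against the main count of edgeR's quasi-likelihood test, with DESeq2 as 1 of the other settings. They kept within 1.5 times of it in 80 combinations of contrast and setting and moved in 7. With 1 library left out, or the sets chosen after seeing the data, they kept in 339 and moved in 3. In contrasts between diets most of those that kept were 0 against 0. With no filter on low counts, 12 genes passed for EPA against OD in aortas, 15 for DHA against OD, and 6 and 6 for the difference between aorta and ear in the 2 diet changes, in place of 0; the cause was not tested. For DHA against OD in aortas 1 gene (Myl1) passed with DESeq2, 2 (Myl1 and Tnnt3) without the libraries of high Xist and 1 (Myl1) with only the 2 diets compared. Leaving out 1 library gave 0 to 1 genes there, 29 to 30 for ears against livers, 25 to 27 for aortas against livers, 27 to 29 for ears against aortas, and 0 to 0 in every other contrast. Myl1 passed for DHA against OD without EPA aorta 1 (adjusted p = 0.0222), EPA aorta 2 (0.0416) or DHA aorta 2 (0.0495). The log2 change of no gene reversed after being called.

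Scaling by TMM over all libraries put the summed liver level at 48.2 CPM under EPA, 66.2 CPM under DHA and 56.9 CPM under OD. Without 1 library the summed level ran from 3604 to 4735 CPM in EPA ears, 2694 to 5713 CPM in DHA ears and 3806 to 5315 CPM in OD ears. In aortas it ran from 457 to 1013 CPM under EPA and 361 to 523 CPM under OD, and reached at most 998 CPM under DHA. The lowest level of DHA aortas, 374 CPM, came from leaving out DHA aorta 3 and DHA aorta 5 together, not 1 library. In livers it ran from 29.7 to 35.3, 38.5 to 47.8 and 31.9 to 34.9 CPM under EPA, DHA and OD. No paired analysis was possible because the labels give no replicate numbers that groups share. EPA against DHA in livers with only the 2 diets left no gene to test. Shallow ears limit what ears can show.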
